A study of Homo sapiens with 12 samples.

Results

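Pa-Tu-8902 is a human pancreatic ductal adenocarcinoma line, and the Pa-Tu-8902 iDox-shGOT1 cells studied here hold a doxycycline-inducible (dox-inducible) hairpin directed at the GOT1 transcript. The comparison set 3 libraries of these cells after 5 days of dox against 3 libraries of the same cells left without it, which are 6 of the 12 libraries of the series. The members are the genes that reached 10 counts in 3 or more of these libraries, 14949 of the 58721 genes in the deposited tables. Untreated and dox-treated cells both carried the hairpin construct, and no library came from dox-treated cells without a GOT1 hairpin, so effects of dox itself and of GOT1 loss cannot be told apart here. The sources used here do not say which of the study's hairpins the sequenced cells carried. The cells were grown in culture and sequenced in bulk, so fewer cells of a kind and less RNA per cell cannot be told apart either. The sample labels number the libraries 1 to 3 and do not say whether these were separate cultures, so the p-values measure the spread between these libraries, which may be technical.

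GOT1 is the cytosolic aspartate transaminase. It takes part in the malate-aspartate shuttle, which carries reducing equivalents from the cytosol into mitochondria, and it converts aspartate to oxaloacetate in pancreatic cancer cells that use this route to make NADPH. A cell that stops dividing or runs short of a metabolite commonly lowers the genes for ribosome building and raises those held in check by growth factor signals. Epithelial tumour cells can also switch on interferon-stimulated genes, which are controlled by STAT and IRF factors and encode proteins that act against viruses and present antigens.

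The 6 libraries held 28507795 to 43406137 counts. From 4.64% to 5.46% of the counts lay in the top 10 genes, and the normalization factors lay between 0.949 and 1.04. Replicates differed from each other by more than counting noise in each of the 6 pairs, so none was a duplicate. Markers were those of epithelium. EPCAM, CDH1 and the keratins KRT7, KRT8, KRT18 and KRT19 all had at least 10 counts in 3 or more libraries. All 5 acinar markers, 4 of 5 neuroendocrine, 4 of 5 endothelial, 5 of 7 leukocyte and 6 of 7 fibroblast markers stayed under 1 TPM, a length-scaled abundance, in every library. The summed fibroblast markers went from 3.82 to 6.38 TPM in untreated to 18.1 to 21.7 TPM in dox-treated libraries. This difference came from COL1A1, while COL3A1, DCN, LUM and PDGFRA stayed below 1 TPM.

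With dox, 1379 genes were higher (9.22% of those tested) and 1064 were lower (7.12%), by edgeR's quasi-likelihood test with a limit of 0.01 on the Benjamini-Hochberg adjusted p and of 1.5 on the fold. A gene that passed both limits is described below as having risen or fallen, and its 3 dox-treated libraries lay apart from its 3 untreated ones in all 2443 cases. Groups that do not overlap are common among all genes, at 58.5% of those tested. The change was at least 2-fold in 692 of the genes that rose and 419 of those that fell, and at least 4-fold in 189 and 53. Among genes with a mean of 1000 or more normalized counts, 5.26% rose and 6.07% fell. In genes with a mean under 100, 10.7% rose and 5.41% fell. Risen protein-coding genes had a median of 206.5 normalized counts without dox, and fallen ones a median of 899. For 195 genes no untreated library reached 10 counts, so they passed the filter only through their dox-treated libraries. Of these, 118 were among the risen. In the text below, values are normalized counts, either in each library or as the mean ± SD of 3 libraries, and log2 fold changes are dox against untreated, with ± SE where one is given. Genes are named by the smallest p in each list, and further members were added after their values were seen.

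The gene lists used to describe the programs differed in how many members moved and in which direction. Members rose in the largest shares among acute-phase and complement proteins, interferon-stimulated effectors, genes of starvation and quiescence, mucins and xenobiotic enzymes. Members fell in the largest shares among serine proteases with their inhibitors, growth factor receptors and ligands, clock genes and one-carbon enzymes. DNA replication, mitosis, the spliceosome, the proteasome and the respiratory chain had few called members in either direction.

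**Figure D1:**
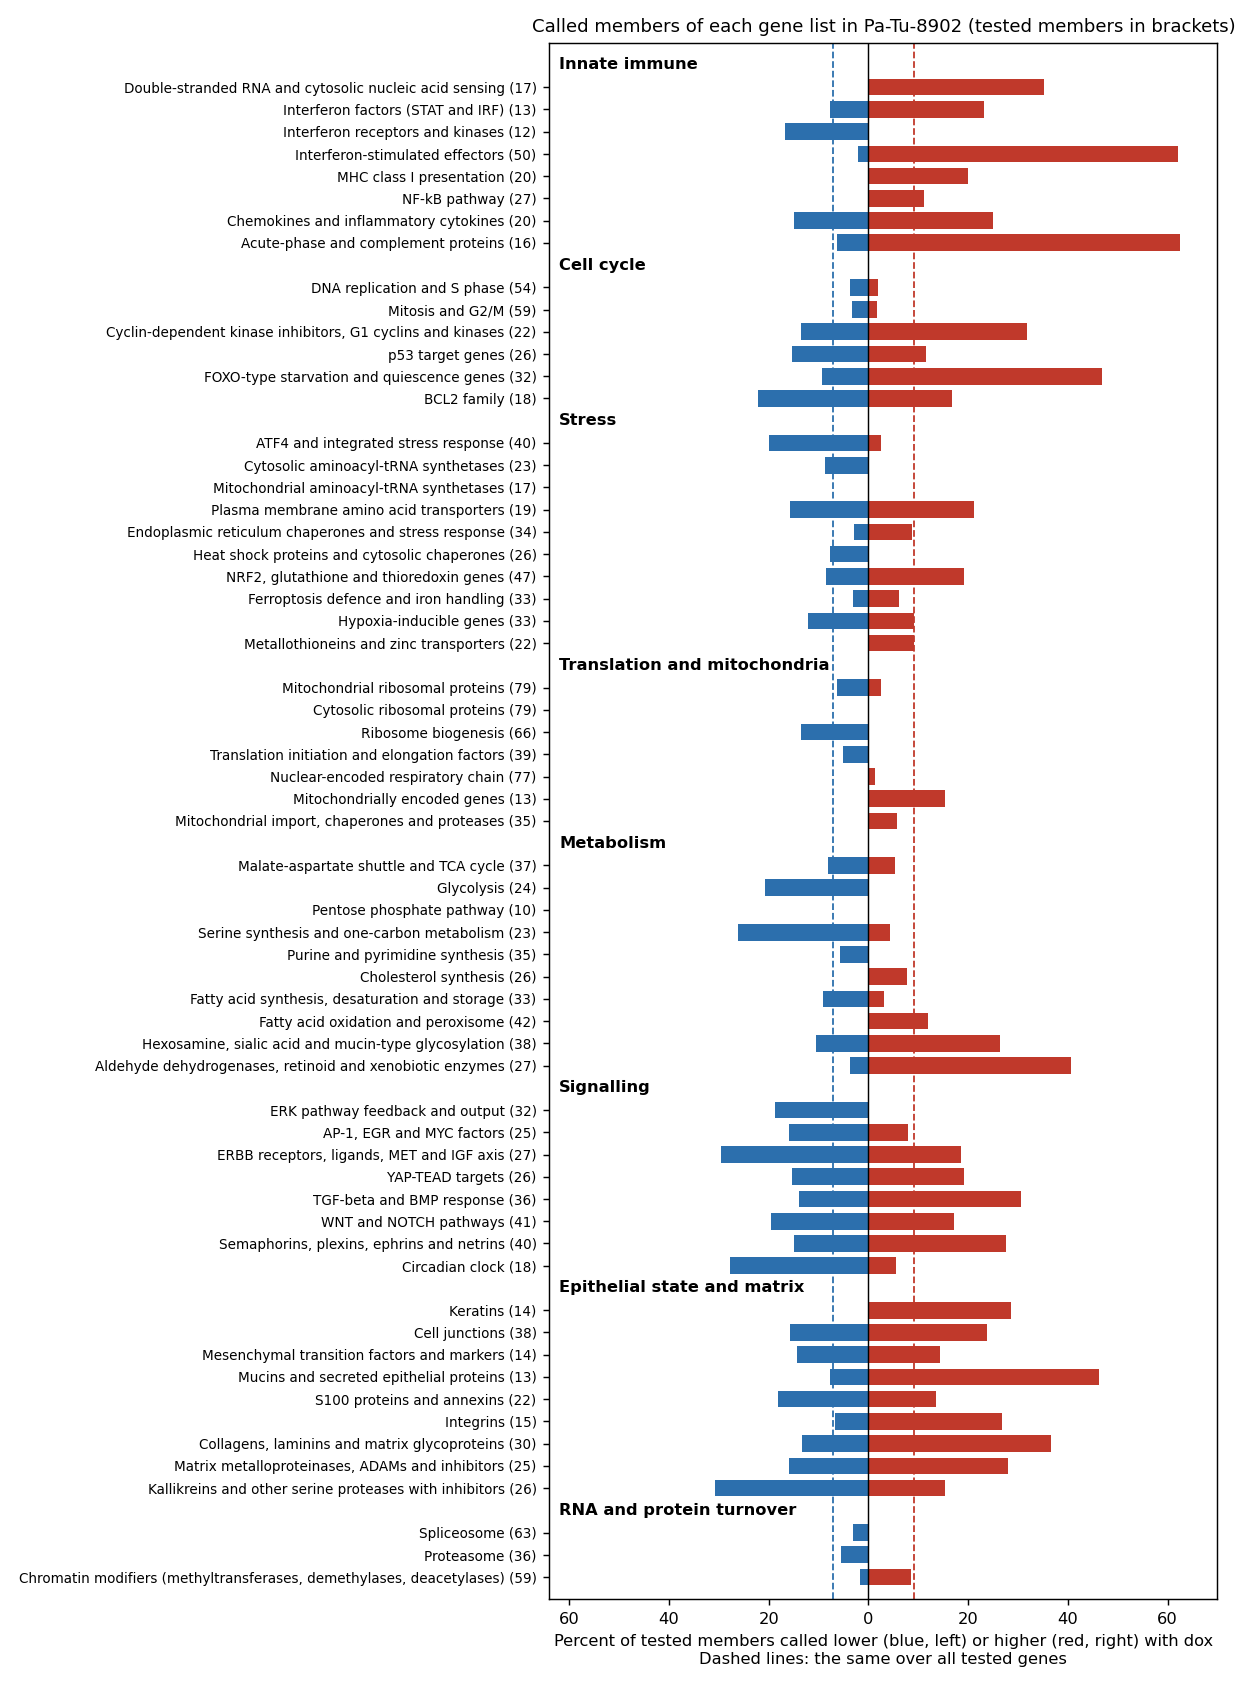
Each row is a gene list, with the number of tested members in brackets. Bars to the right give the percent of tested members called higher with dox and bars to the left the percent called lower, and the dashed lines mark 9.22% and 7.12%, the same shares over all 14949 tested genes.

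GOT1 (ENSG00000120053, chromosome 10, 99396870 to 99430624 on GRCh38) had 4076, 3956 and 4519 normalized counts in the untreated libraries and 192, 165 and 146 in the dox-treated ones. Its log2 fold change was -4.64 ± 0.09 (adjusted p = 1.51e-09), and every dox-treated library lay below every untreated one. Past GOT1, the largest falls by the rule used here included KLK10, IGFBP6, WNT9A, RFX8 and CYSRT1. KLK10, a secreted kallikrein-family protease, had 8954, 9170.2 and 10319.7 counts without dox and 1032, 1231 and 1094 with it (-3.08 ± 0.08). IGFBP6, a secreted protein that binds insulin-like growth factors, had 4029, 4075 and 4775 and then 661, 824 and 683 (-2.57 ± 0.09). In both genes the highest dox-treated library was far below the lowest untreated one. WNT9A, a WNT ligand, went from 746, 773 and 836 to 111, 105 and 107.

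The largest rises included genes for secreted and surface proteins. ADAM28, a membrane-anchored metalloprotease, had 48.7, 45.9 and 36.1 counts in untreated and 528, 453 and 472 in dox-treated libraries (3.47 ± 0.13). CFB, complement factor B, had 15.8, 24.8 and 19.2 and 258, 193 and 145 (3.29 ± 0.26). ACPP, prostatic acid phosphatase, had 23.1, 30.6 and 32.7 and 266, 267 and 263. PLSCR4 encodes a phospholipid scramblase family protein and rose from 28.9 ± 5.91 to 276 ± 38.3. MGP, a calcification inhibitor of the extracellular matrix, had 3, 0 and 3 raw counts without dox and 252, 280 and 214 with it, a ratio of 106 after scaling for library size (95% exact interval 48.3 to 289, counting error only). MGP passed the filter only through its dox-treated libraries.

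**Figure D2:**
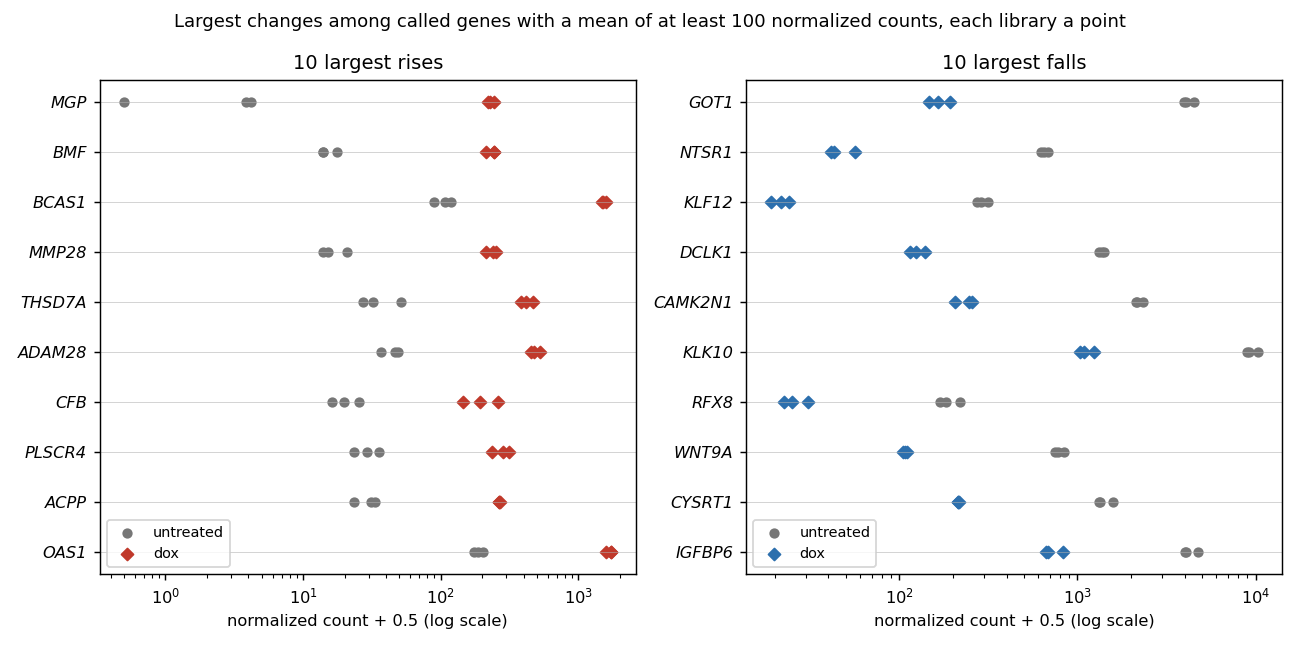
The horizontal axis is the normalized count plus 0.5 on a log scale, each point is a library, grey circles are untreated and diamonds dox-treated. Shown are the 10 largest rises (left) and falls (right). Only called genes whose groups do not overlap could enter, so the separation of the groups was set by that rule. GOT1 went from a mean of 4184 to 168.

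The interferon system was described by layer, from sensors to effectors. Of 17 tested sensors of double-stranded RNA and cytosolic nucleic acids, 6 rose and 0 fell (median log2 fold change 0.35, against 0.00 over all tested genes). The risen members included enzymes that make 2-5A, a messenger of the antiviral response. OAS1 (ENSG00000089127, chromosome 12, 112905856 to 112933219) had 185, 173 and 201 counts without dox and 1712, 1737 and 1593 with it (3.18 ± 0.08, adjusted p = 2.37e-09). OAS2 had 85.2, 97.4 and 90.2 and 492, 483 and 504. The DNA sensor IFI16, the endosomal RNA receptor TLR3 and the RIG-I regulator DHX58 also rose. Several sensors that start the signal did not pass the limits. DDX58, which encodes RIG-I, had a log2 fold change of -0.35, IFIH1, which encodes MDA5, 0.22, and CGAS, the DNA sensor that makes cGAMP, -0.39.

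Of 13 STAT and IRF factors, 3 rose and 1 fell (median 0.15). IRF9, the DNA-binding part of the factor ISGF3, rose most (ENSG00000213928, chromosome 14, 24161234 to 24168043). Its counts were 249, 243 and 272 in untreated and 983, 980.0 and 946 in dox-treated libraries (1.93 ± 0.07, adjusted p = 2.13e-08). STAT2, with which it acts in that factor, stayed under the 1.5-fold limit, with 0.42. IRF2 rose from 349.5 ± 12.1 to 665 ± 34.4 (log2 fold change 0.93) and IRF1 from 1158 ± 26 to 1829 ± 70.2 (log2 fold change 0.66). IRF5 fell from 211 ± 12.4 to 71.3 ± 9.75 (log2 fold change -1.56). None of the 12 interferon receptors, kinases and their inhibitors rose, and JAK2 and SOCS3 fell, SOCS3 by less than 1.5-fold (-0.52 and -0.54) without the first dox-treated or the third untreated library. IFNE, an interferon of epithelia that was looked at after these values were seen, had 93.7, 97.4 and 48.5 normalized counts without dox and 217, 125 and 159.7 with it (1.06 ± 0.26, adjusted p = 0.00644). Its call was lost without untreated library 1 or 3 or dox-treated library 1 or 3, at edgeR adjusted p-values of 0.0112 to 0.0225 and log2 fold changes of 0.80 to 1.17.

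Of 50 tested interferon-stimulated effectors, 31 rose (62.0%), 1 fell and 18 passed neither limit, with a median log2 fold change of 0.81. Their summed abundance was 1555 to 1668 TPM in untreated and 2430 to 2520 TPM in dox-treated libraries. MX1, an antiviral GTPase, rose from 644 ± 29.2 to 1771 ± 115 (log2 fold change 1.46). APOL6 and APOL1, apolipoprotein L proteins, rose from 1468 ± 16.9 to 3645 ± 61.1 (log2 fold change 1.31) and from 547 ± 18.9 to 1481 ± 67.2 (log2 fold change 1.44). IFITM3, which blocks virus entry at endosomes, rose from 4803 ± 549 to 9292 ± 1029 (log2 fold change 0.95). PARP9 and its partner DTX3L, which act together on STAT signalling and DNA damage, rose from 895 ± 62.9 to 1781 ± 96 and from 1865 ± 53.3 to 2964 ± 23.9. IFI44L and GBP2 were near absence without dox, with 4 raw counts over the 3 untreated libraries in each, and held 115 and 72 over the dox-treated ones. Both passed the filter only through the dox-treated libraries.

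Several of the best known interferon-stimulated genes were not among the risen. IFIT1, an RNA-binding antiviral protein, had 2759.6, 2647 and 2949 counts without dox and 3199, 2625 and 3084 with it, and the groups overlapped. IFIT2 had a log2 fold change of 0.04, IFI44 -0.12 and SAMD9 0.12. ISG15, a ubiquitin-like protein that is attached to other proteins, had 2022, 2163 and 2583 and 1614, 1812 and 1689.5 (-0.40, below the fold limit). The enzymes that attach it went different ways. UBA7, which activates ISG15, rose from 18.7 ± 5.02 to 73.3 ± 18.9, and UBE2L6, which carries it, rose from 124 ± 19.5 to 475 ± 26.8 (log2 fold change 1.94). HERC5, the main ligase for it, fell from 77.5 ± 7.21 to 39.5 ± 4.29 (log2 fold change -0.97), and USP18, which removes it, had 0.21.

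**Figure D3:**
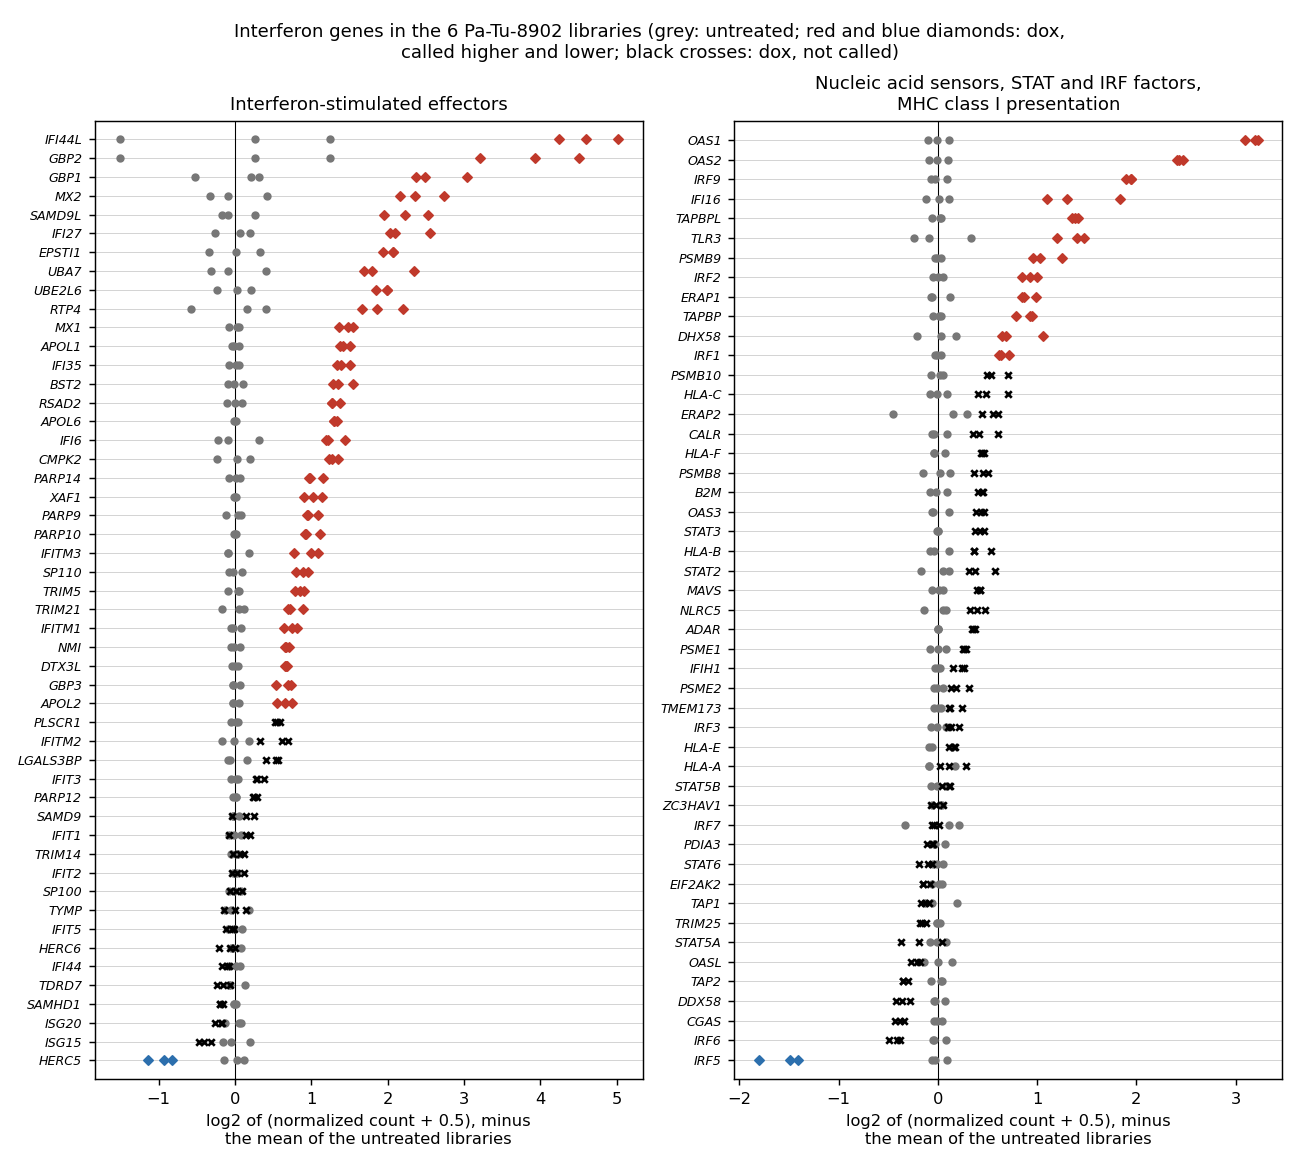
Each point is a library, placed by the log2 of its normalized count plus 0.5 minus the mean of the 3 untreated libraries. At left are interferon-stimulated effectors. Of the 50 tested, 31 are called higher with dox (62.0%, against 9.22% of all tested genes), while IFIT1, IFIT2 and IFI44 stay near 0. In 36 of the 50 all 3 dox-treated libraries lie above the untreated ones, against 3958 of 12560 protein-coding genes. Groups that do not overlap in either direction make up 58.5% of all tested genes. Genes not reported here are not drawn. At right, OAS1, OAS2 and IRF9 lead the sensors and factors shown.

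Promoter sequence was read from the RefSeq table on GRCh38.p14 (250 bases before to 50 after the start), which held 41 of the 50 effectors. The core of the interferon-stimulated response element, GAAANNGAA on either strand, was in 73.2% of these 41 promoters and in 6.43% of the 10290 promoters of tested genes that the table held. It was in 17 of the 24 risen effectors and in 12 of the 16 that passed neither limit. The gamma-activated site, TTCNNNGAA, was in 8 of the 24 risen effectors (33.3%) and 1 of the 16 others (6.25%), against 6.25% of all tested genes. A match is a description of these letters and not of a bound site. Stretches before the start of risen effectors are shown for their response element, which is in capitals, each 5′ to 3′ on the strand of the gene. They are PARP14 at chr3:122680795-122680833 (plus strand), TRIM5 at chr11:5685077-5685115 (minus strand), IFITM1 at chr11:313985-314023 (plus strand), BST2 at chr19:17405731-17405775 (minus strand) and RSAD2 at chr2:6865791-6865829 (plus strand).
PARP14: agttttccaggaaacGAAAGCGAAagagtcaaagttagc
TRIM5: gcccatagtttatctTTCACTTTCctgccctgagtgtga
IFITM1: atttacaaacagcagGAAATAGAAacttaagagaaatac
BST2: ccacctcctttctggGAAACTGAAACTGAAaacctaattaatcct
RSAD2: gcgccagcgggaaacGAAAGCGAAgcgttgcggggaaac
PARP14, a mono-ADP-ribosyltransferase, rose from 1503 ± 72.3 to 3083 ± 223 (log2 fold change 1.04). BST2, or tetherin, holds budding virus particles at the cell surface and rose from 96.1 ± 7.02 to 254 ± 24.9 (log2 fold change 1.41). In BST2 the element appears as a pair of overlapping matches.

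Of 20 genes for MHC class I presentation, 4 rose and 0 fell (median 0.44). TAPBPL and TAPBP, which edit the peptides loaded onto class I molecules, rose from 560.3 ± 18.6 to 1462 ± 30.3 (log2 fold change 1.38) and from 3873 ± 112 to 7173 ± 430.3 (log2 fold change 0.89). The immunoproteasome subunit PSMB9 rose from 325 ± 7.09 to 689.5 ± 75.7, and ERAP1, a peptidase that trims peptides, from 838 ± 64 to 1564 ± 80.2. The class I chains were higher by less than 1.5-fold, with 0.42 for HLA-B, 0.54 for HLA-C (0.63 without the first dox-treated library, past the limit, and 0.59 without the third dox-treated or first untreated one) and 0.44 for B2M. The transporter subunits TAP1 and TAP2 had -0.13 and -0.34.

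Of 27 tested NF-kB pathway members, 3 rose, none fell, and 18 had log2 fold changes below 0 (median -0.17). BCL3, a nuclear partner of p50 and p52, rose from 487 ± 32 to 1102 ± 71.9 (log2 fold change 1.18) and BIRC3, a ubiquitin ligase that NF-kB induces, from 7309 ± 231 to 12088 ± 861 (log2 fold change 0.73). The subunits NFKB1, RELA and NFKB2 had -0.35, -0.16 and -0.43. Among 20 chemokines and cytokines, 5 rose and 3 fell. IL1B rose from 324 ± 51.1 to 642 ± 54.1 (log2 fold change 0.99), TNFSF15 from 517 ± 51.6 to 1084 ± 92.3 and CXCL1, a neutrophil chemokine, from 86.7 ± 3.16 to 174 ± 4.37. LIF, a cytokine of the IL-6 family, fell from 2405 ± 38.7 to 1043 ± 80.9 (log2 fold change -1.21), and IL23A fell from 106 ± 15.1 to 32.9 ± 7.09.

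Acute-phase and complement genes rose in 10 of 16 cases (62.5%), and 1 fell (median 1.60). CP (ceruloplasmin), among the risen, passed the filter only through its dox-treated libraries. C3, the central complement protein, had 68.1, 64 and 58.6 counts without dox and 308, 316 and 266 with it (2.22 ± 0.13). The proteases that start the classical pathway, C1S and C1R, rose from 50.3 ± 9.15 to 374 ± 57.2 (log2 fold change 2.90) and from 73.1 ± 13 to 225 ± 16.2 (log2 fold change 1.62). Clusterin (CLU), a secreted chaperone that restrains the terminal pathway, rose from 425 ± 49.1 to 1672 ± 44.3 (log2 fold change 1.98). The acute-phase proteins SAA1 and SAA2 rose from 149.9 ± 17.1 to 447 ± 53.6 and from 39.2 ± 3.27 to 158 ± 19.8. These 2 genes are near copies of each other, so reads may be split between them. CD55, which protects cells from complement at their surface, fell from 1635 ± 93 to 932 ± 69.6 (log2 fold change -0.81). 

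DNA replication and mitosis genes moved little at the transcript level. Of 54 tested S phase genes, 1 rose and 2 fell, 1.85% and 3.70%, both under the shares of all genes. Of the log2 fold changes, 46 of 54 were below 0, with a median of -0.21. ORC1, a subunit of the origin recognition complex, fell from 1133 ± 30.3 to 714 ± 16.9 (log2 fold change -0.67), and TYMS, thymidylate synthase, from 4109.8 ± 204 to 2532 ± 56.6 (log2 fold change -0.70). Of 59 mitosis and G2/M genes, 1 rose and 2 fell (median -0.06). MKI67 had a log2 fold change of -0.24 and CCNB1 -0.23.

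Regulators of the G1 phase moved more often, with 7 of 22 risen and 3 fallen (median 0.19). The CDK inhibitor p27, CDKN1B, had 3392, 3562 and 3778 counts without dox and 5943, 5973 and 6186 with it (0.75 ± 0.05). CDKN1C, which encodes the related p57, rose from 50.6 ± 11.5 to 150.1 ± 21.2 (log2 fold change 1.56). CCNG2, a cyclin of quiescent cells, rose from 269.7 ± 14 to 609 ± 13.5 (log2 fold change 1.17). CDK4, the kinase that cyclin D activates, fell from 8492 ± 839 to 5564 ± 362 (log2 fold change -0.61), with -0.53 without the first dox-treated or the third untreated library, under the fold limit. CDKN2D, an inhibitor of CDK4, fell from 1059 ± 52 to 612 ± 29.2 (log2 fold change -0.79). Of the G1 regulators 1 fell when the first dox-treated library was left out. The p53 targets went both ways, with 3 risen and 4 fallen of 26 (median -0.02). This balance rested on single libraries, with 5 risen and 3 fallen without the third dox-treated library, 4 risen and 3 fallen without the first, and a median of 0.01 in both cases. TP53INP1 rose from 12.9 ± 3.57 to 101 ± 13.2 and ZMAT3 from 346 ± 34.8 to 668 ± 16.5, while DDB2 fell from 899 ± 51.3 to 487 ± 39.2.

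Genes that FOXO factors and starvation are known to raise were among the most changed. Of 32 tested, 15 rose (46.9%) and 3 fell (median 0.64). MXD4, a partner of MAX that opposes MYC, had 1021, 983 and 1164 counts without dox and 2829.8, 3107 and 2989.7 with it (adjusted p = 6.64e-08). YPEL2, YPEL3 and YPEL5, of a small family of conserved proteins, rose from 26.9 ± 4.03 to 124 ± 6.52, from 61.4 ± 4.25 to 141 ± 16.7 and from 426 ± 48.4 to 916 ± 37.8. TRIB2, a pseudokinase, rose from 3678 ± 31.9 to 6444 ± 222 (log2 fold change 0.81). The receptors INSR and IGF1R rose from 13.3 ± 3.27 to 40.8 ± 6.37 and from 1487 ± 41.3 to 2373 ± 21.3 (log2 fold change 0.67). The adaptor IRS2, which acts below these receptors, fell from 2588 ± 153 to 1508 ± 76 (log2 fold change -0.78). FOXO3 itself fell from 2022 ± 81 to 1105 ± 33.7 (log2 fold change -0.87) and FOXO4 rose from 42.1 ± 0.73 to 133 ± 11 (log2 fold change 1.66). GABARAPL1, in this list and also an autophagy gene, rose from 348 ± 21.4 to 1157 ± 19.3 (log2 fold change 1.74).

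In the BCL2 family 3 of 18 members rose and 4 fell. The pro-survival genes BCL2, MCL1 and BCL2L1 were among the fallen, and the risen were all BH3-only genes, which promote apoptosis. BCL2L1, which encodes BCL-xL, had 14978, 15330.1 and 16224 counts without dox and 9284, 10441 and 9883 with it (-0.65 ± 0.06). MCL1 fell from 5412 ± 202 to 3185 ± 94 (log2 fold change -0.77) and BCL2 from 307 ± 31.1 to 155 ± 6.97 (log2 fold change -0.99). Of the BH3-only genes, BMF rose from 14.6 ± 2.07 to 231 ± 17.2 (log2 fold change 3.98), BBC3 (PUMA) from 54.5 ± 7.91 to 116 ± 22 (log2 fold change 1.07) and BCL2L11 (BIM) from 756 ± 33.7 to 1242 ± 26.5 (log2 fold change 0.72). HRK, also a BH3-only gene, fell from 115 ± 9.20 to 69.9 ± 8.72 (log2 fold change -0.72), but the call was lost, at edgeR adjusted p-values of 0.01001 to 0.0171, without untreated library 1 or 3 or dox-treated library 2 or 3.

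ATF4-linked genes of the integrated stress response fell more often than they rose. Of 40 tested, 1 rose and 8 fell, with a median of -0.28. ASNS, which makes asparagine from aspartate, had 2649, 2728 and 2946 counts without dox and 1267, 1304 and 1276 with it (-1.11 ± 0.05, adjusted p = 9.61e-08). The stress factor DDIT3 (CHOP) fell from 348 ± 10.5 to 201 ± 3.39 (log2 fold change -0.79). CHAC1, which degrades glutathione, fell from 406 ± 64.3 to 232 ± 12.1 (log2 fold change -0.80). SLC7A11, the cystine transporter, fell from 1966 ± 137 to 1189.8 ± 51.8 (log2 fold change -0.73). ATF4 itself had -0.41, below the fold limit. CTH, which makes cysteine by transsulfuration, was the member that rose, from 42.6 ± 11.6 to 87.4 ± 2.83. The amino acid response element TGATGNAA on either strand was in 2 of the 6 fallen members with a promoter in the table, in 3 of the 18 not called, in 5 of the 25 of the list and in 1.57% of all tested genes. The stretches of ASNS (chr7:97872454-97872491, minus strand) and CHAC1 (chr15:40953247-40953284, plus strand) are shown for this element, in capitals, 5′ to 3′ on the strand of the gene.
ASNS: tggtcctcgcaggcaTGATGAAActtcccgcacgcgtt
CHAC1: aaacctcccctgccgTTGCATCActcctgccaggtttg

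Other stress programs had few called members. None of the 26 heat shock genes and cytosolic chaperones rose, 2 fell, and 22 had log2 fold changes below 0 (median -0.27). DNAJB1, the inducible cochaperone of HSP70, had 8312, 8036 and 8952 counts without dox and 3524, 3359.9 and 3401 with it (-1.30 ± 0.05). HSP90AA1 fell from 147841 ± 5171 to 98016 ± 2332 (log2 fold change -0.59), at the edge of the fold limit, which it missed without the second dox-treated (-0.56), the third dox-treated (-0.58) or the third untreated library (-0.57). Of 34 endoplasmic reticulum genes, 3 rose and 1 fell. The cargo selector SEC24D rose from 591 ± 68.2 to 1147 ± 58.9 (log2 fold change 0.95) and the chaperone HYOU1 fell from 17533 ± 552 to 11204 ± 504 (log2 fold change -0.65). Hypoxia-inducible genes split, with 3 risen and 4 fallen of 33. HIF1A and EPAS1, the oxygen-sensitive subunits, rose from 4611 ± 40 to 7073 ± 325 (log2 fold change 0.62) and from 6859.6 ± 257 to 10295 ± 269 (log2 fold change 0.59), and their partner ARNT fell from 774 ± 49.2 to 416 ± 23 (log2 fold change -0.90). Without the first untreated library EPAS1 missed the fold limit (0.55).

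NRF2, glutathione and thioredoxin genes rose in 9 of 47 cases (19.1%) and fell in 4 (median 0.09). With single libraries left out 5 to 8 rose, and the 5 were without the second dox-treated library. HMOX1, heme oxygenase, had 170.3, 186 and 228 counts without dox and 1362, 1513 and 1547 with it (2.92 ± 0.10, adjusted p = 1.24e-08). The paper describes HMOX1 expression after GOT1 knockdown as unchanged in this line and raised in MIA PaCa-2, which differs from the rise seen here. The paper's main text does not name the assay behind that statement, so the measure and samples may not be those used here. The reason for the different HMOX1 results was not tested. ABCC3, an exporter of conjugates, rose from 128 ± 5.63 to 707 ± 81.1 (log2 fold change 2.47), and the aldo-keto reductase AKR1C3 rose from 49.9 ± 2.29 to 230.2 ± 12.5 (log2 fold change 2.21). This reductase has near copies in AKR1C1 and AKR1C2, so its reads may be shared with them. Catalase (CAT) rose from 1562 ± 89.9 to 2578 ± 88.3 (log2 fold change 0.72). Glutathione reductase (GSR) rose from 4613 ± 147 to 6963 ± 313 (log2 fold change 0.59), and missed the fold limit without the second dox-treated (0.58) or the second untreated library (0.57). The peroxide removers GPX1 and PRDX3 fell from 4094 ± 508 to 2392 ± 168 (log2 fold change -0.77) and from 9113 ± 475 to 5010.5 ± 145 (log2 fold change -0.86). FTH1, the heavy chain of the iron store ferritin, rose from 109743 ± 5756 to 184719 ± 20720.3 (log2 fold change 0.75), and the light chain FTL had -0.40.

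Cytosolic ribosomal protein genes had small negative values. None of 79 passed the fold limit, but 77 had log2 fold changes below 0 (median -0.22). Their summed abundance was 197940 to 210830 TPM in untreated and 178370 to 183620 TPM in dox-treated libraries, and the groups did not overlap. Ribosome biogenesis genes fell in 9 of 66 cases (13.6%) and rose in none, with 62 below 0 (median -0.32). RRP12, needed to export and process ribosomal subunits, had 3439.7, 3480.2 and 3663 counts without dox and 1784, 1902 and 1792 with it (-0.95 ± 0.05, adjusted p = 1.87e-07). NPM1, the abundant nucleolar protein nucleophosmin, fell from 78855 ± 2832 to 45943 ± 452 (log2 fold change -0.78), and NOP56, a core protein of box C/D snoRNPs, from 11713 ± 56.3 to 7330.0 ± 206 (log2 fold change -0.68). RRN3, which recruits RNA polymerase I, fell from 3453 ± 111 to 2082 ± 46.4 (log2 fold change -0.73). NPM1 has many processed pseudogenes, so part of its reads may be placed on copies.

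Host genes of small nucleolar RNAs, whose symbols begin with SNHG, were looked at after their values were seen. Of 19 tested, 8 fell (42.1%) and none rose (median -0.52). SNHG3 had 1239, 1229 and 996 counts without dox and 533, 473 and 438 with it (-1.26 ± 0.10). SNHG19 fell from 509 ± 52.8 to 239.5 ± 13 (log2 fold change -1.08) and SNHG4 from 979 ± 104 to 561 ± 87.4 (log2 fold change -0.81). SNHG16 had the largest value in the other direction, 0.49 (0.59 without the first dox-treated library, past the fold limit). Translation factors fell in 2 of 39 cases, EIF5 from 13411 ± 356 to 7494 ± 149 (log2 fold change -0.84) and EIF2B3 from 1523 ± 103 to 927 ± 16. Of 23 cytosolic aminoacyl-tRNA synthetase genes, 2 fell, VARS and the scaffold EEF1E1. None of 17 mitochondrial ones was called in either direction, and YARS2, with the smallest p among them, had -0.52.

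All 13 mitochondrially encoded genes had log2 fold changes above 0 (median 0.51), and 2 rose, MT-ND2 from 25846 ± 3861 to 41273 ± 11786 (log2 fold change 0.67) and MT-ND3 from 4602 ± 18.2 to 8301 ± 316 (log2 fold change 0.85), both subunits of complex I. Their summed abundance varied widely, at 21373, 22404 and 17384 TPM without dox and 39683, 20468 and 31765 TPM with it. The second dox-treated library lay among the untreated ones, so the groups overlapped for the sum. Without the second dox-treated library 8 rose, and without any other single library 1 did. The call of MT-ND2 held only while all libraries or all but the second dox-treated were used, and was lost without any other (edgeR adjusted p = 0.0143 to 0.0365). Of 77 nuclear-encoded respiratory chain genes, 55 were above 0 (median 0.09) and 1 rose. That gene was ATP5MC2, for the c ring of ATP synthase, with 1781, 1692 and 1937 and 3542, 3987 and 3688 (1.05 ± 0.06). Of 79 mitochondrial ribosomal protein genes, 2 rose and 5 fell (median -0.10). Without the first dox-treated or the third untreated library 3 fell, and the median lay between -0.14 and -0.05 when libraries were left out singly. In the import and protease list, 31 of 35 were below 0, and OMA1, a stress-activated protease of the inner membrane, rose from 132 ± 15.5 to 276 ± 9.42 (log2 fold change 1.05).

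**Figure D4:**
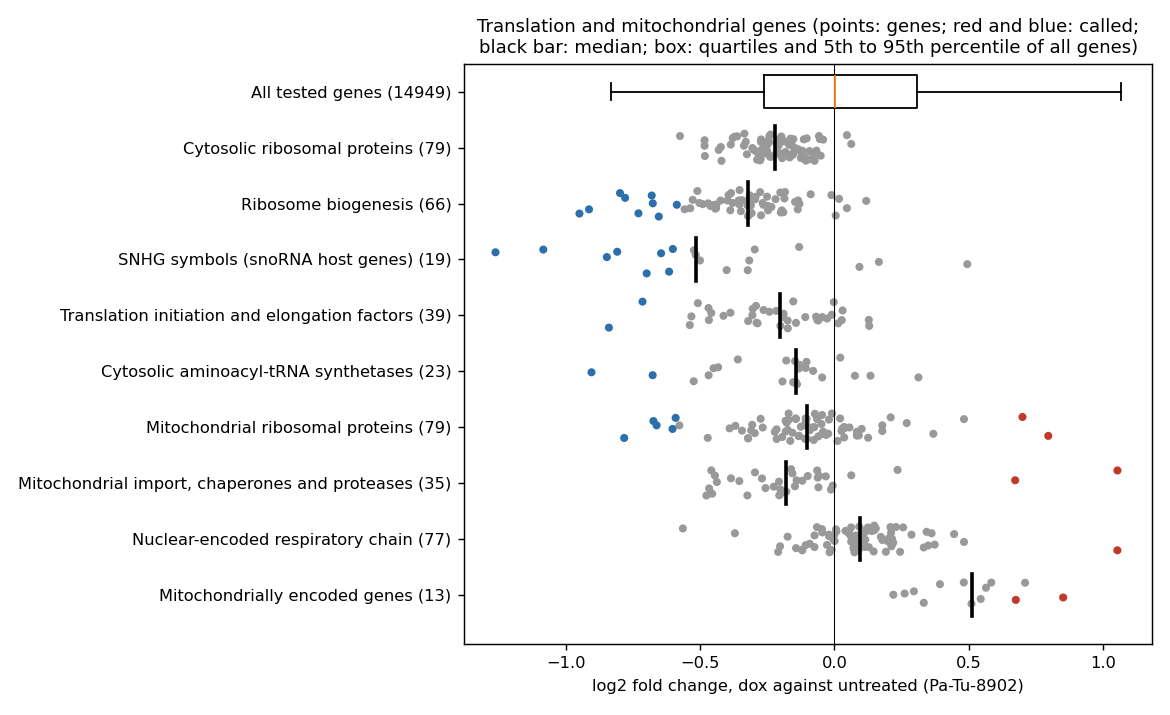
Each point is a gene placed by its log2 fold change, red or blue where it was called, with the median as a black bar, and the box gives the quartiles and the 5th to 95th percentile of all 14949 genes. Ribosome biogenesis (median -0.32) and SNHG genes (-0.52) lie to the left, and mitochondrially encoded genes (0.51) to the right.

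Of 37 malate-aspartate shuttle and TCA cycle genes, 2 rose and 3 fell (median -0.10). The mitochondrial partner GOT2 had a log2 fold change of -0.15, and the malate dehydrogenases MDH1 and MDH2 0.25 and 0.14. The NADP-dependent isocitrate dehydrogenases IDH1 and IDH2 rose from 3392 ± 215 to 6128 ± 459 (log2 fold change 0.85) and from 1319 ± 149 to 2736 ± 201 (log2 fold change 1.05), and IDH3A, the catalytic subunit of the NAD-dependent enzyme, fell from 4846 ± 161 to 2114 ± 77.8 (log2 fold change -1.20), with its partner IDH3B at -0.11. DLD, the lipoamide dehydrogenase shared by several mitochondrial complexes, had 3728, 3566 and 3758 counts without dox and 1741, 1688 and 1749.8 with it (-1.09 ± 0.05). ACLY, which turns citrate into acetyl-CoA, fell from 8471 ± 345 to 4418 ± 96 (log2 fold change -0.94).

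Glycolysis genes fell in 5 of 24 cases (20.8%) and rose in none (median -0.26). Without the first dox-treated library 3 fell, and without any other single library 4 did. ENO2, an enolase, had 836, 907 and 784 counts without dox and 252, 226 and 219 with it (-1.86 ± 0.09). The entry enzymes HK2 and PFKP fell from 2261 ± 57.5 to 1313 ± 46.1 (log2 fold change -0.78) and from 8709 ± 305 to 5452 ± 356 (log2 fold change -0.68). The abundant enzymes stayed under the fold limit, with -0.49 for GAPDH and -0.33 for LDHA. Serine and one-carbon genes fell in 6 of 23 cases (26.1%) and rose in 1 (median -0.21). SLC25A32, a mitochondrial folate carrier, fell from 2582 ± 119 to 1314 ± 54.9 (log2 fold change -0.97), SHMT2 from 4964 ± 383 to 3065 ± 98.6 (log2 fold change -0.70) and GLDC, of the glycine cleavage system, from 102 ± 9.65 to 15.8 ± 4.29 (log2 fold change -2.71). No member of the pentose phosphate list of 10 was called, and PRPS2, with the smallest p, had -0.27.

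Of 42 fatty acid oxidation and peroxisome genes, 5 rose (11.9%, against 9.22% of all genes) and none fell. Among them were PPARA and PPARG, nuclear receptors for fatty acids, ACADS and CAT. PPARG had 1787, 1656 and 1918 counts without dox and 3008, 3213 and 3229 with it (0.82 ± 0.06). Of 33 fatty acid synthesis and storage genes, 1 rose and 3 fell, or 5 without the first dox-treated library. DGAT2, of triglyceride synthesis, rose from 578 ± 35.8 to 1210.5 ± 98.8 (log2 fold change 1.07), and AGPAT2, of phosphatidic acid synthesis, fell from 5587 ± 585 to 2903 ± 370.2 (log2 fold change -0.94). Cholesterol synthesis genes rose in 2 of 26 cases (7.69%), under the 9.22% of all genes, and none fell. The 2 were HMGCS1, from 5992 ± 187 to 10075 ± 289 (log2 fold change 0.75), and MSMO1, from 1363 ± 103 to 2341 ± 27.8 (log2 fold change 0.78).

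The sugar-nucleotide and glycosylation genes changed in both directions, with 10 of 38 risen (26.3%) and 4 fallen. GNE (ENSG00000159921, chromosome 9, 36214441 to 36277042), the entry enzyme of sialic acid synthesis, had 1865, 1705 and 1828 counts without dox and 6940.4, 6598 and 6497 with it (1.89 ± 0.05, adjusted p = 5.19e-09). The sialyltransferases ST3GAL5 and ST6GAL1 rose from 100.3 ± 8.81 to 647 ± 37.7 (log2 fold change 2.69) and from 22.8 ± 1.01 to 92.7 ± 17.9 (log2 fold change 2.01). The enzymes that begin mucin-type O-glycans, GALNT2, GALNT7 and GALNT12, rose from 4940.1 ± 174 to 10326 ± 399 (log2 fold change 1.06), from 1665 ± 22.8 to 3098 ± 68.6 and from 383 ± 13 to 723 ± 21.6. In the hexosamine pathway that feeds them, GFPT1, the entry enzyme, fell from 3706 ± 62.1 to 2338 ± 78.8 (log2 fold change -0.67), and UAP1, which makes UDP-GlcNAc, fell from 3538 ± 159.7 to 1396 ± 70.9 (log2 fold change -1.34). GFPT2 rose from 93 ± 11.3 to 258 ± 17.9 (log2 fold change 1.46). The fucosyltransferases FUT1 and FUT3 fell from 334 ± 9.04 to 113 ± 0.77 (log2 fold change -1.57) and from 1181 ± 79.5 to 512 ± 40.2 (log2 fold change -1.20).

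Aldehyde dehydrogenase, retinoid and xenobiotic enzyme genes rose in 11 of 27 cases (40.7%) and fell in 1 (median 0.56). ALDH1A1, which oxidizes retinaldehyde, had 31.6, 30.6 and 39.4 counts without dox and 304, 256 and 289 with it (3.06 ± 0.15). NNMT, which methylates nicotinamide, had 106, 115 and 153 and 1067, 1228 and 1043 (3.16 ± 0.13). CYP1B1, a target of the aryl hydrocarbon receptor, rose from 271 ± 15.2 to 1054 ± 80.8 (log2 fold change 1.95), and ALDH3A1 from 763 ± 42 to 1995 ± 82.5 (log2 fold change 1.39). CYP26B1, which breaks down retinoic acid, rose from 15.9 ± 0.26 to 41.7 ± 6.97. The retinoic acid receptor RARG fell from 3082 ± 211 to 1894 ± 104 (log2 fold change -0.70).

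None of 32 ERK pathway output genes rose and 6 fell (18.8%), with a median of -0.29. Without the first dox-treated library 3 fell. FOSL1, an AP-1 subunit that ERK stabilizes, had 18841, 19575 and 20160.4 counts without dox and 7837, 8903 and 9001 with it (-1.19 ± 0.06, adjusted p = 1.50e-07). ETV4, an ETS factor, fell from 4511 ± 214 to 2078 ± 216 (log2 fold change -1.12) and EGR1, an immediate-early factor, from 333 ± 7.27 to 159 ± 10 (log2 fold change -1.06). Among AP-1 factors, JUN fell from 1335 ± 59.9 to 779 ± 51.3 (log2 fold change -0.78) and FOSL2 rose from 2070.1 ± 34.6 to 3757 ± 88.6 (log2 fold change 0.86). In the receptor and ligand list 5 of 27 rose (18.5%) and 8 fell (29.6%). The ligands AREG, HBEGF and GAS6 fell from 2209 ± 124 to 1355 ± 5.75 (log2 fold change -0.70), from 3105 ± 86.4 to 1690.5 ± 43.2 (log2 fold change -0.88) and from 11519 ± 211 to 3302 ± 69.4 (log2 fold change -1.80). AXL and MERTK, receptors of GAS6, fell from 4820.0 ± 255 to 2005 ± 158 (log2 fold change -1.26) and from 537 ± 38.6 to 337 ± 3.93 (log2 fold change -0.67). FGFR3 rose from 153 ± 8.52 to 363 ± 14.9 (log2 fold change 1.25).

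The TGF-beta and BMP list rose in 11 of 36 cases (30.6%) and fell in 5. MGP, which passed the filter only through its dox-treated libraries, is counted among the risen. ID3, ID2 and ID1, which BMP signals induce, rose from 1749 ± 181 to 4923 ± 119 (log2 fold change 1.49), from 152 ± 6.65 to 388 ± 24 (log2 fold change 1.35) and from 5301 ± 449 to 8852 ± 747 (log2 fold change 0.74). SMAD6, an inhibitor of BMP signals, had 136, 159.5 and 126 counts without dox and 1123, 1094 and 1083 with it (2.96 ± 0.09), and SMAD7 rose from 192 ± 14.4 to 419 ± 48.2 (log2 fold change 1.13). The ligand TGFB1 fell from 971 ± 70.5 to 381 ± 66.6 (log2 fold change -1.35). Latent binding proteins split, with LTBP1 up from 177 ± 4.94 to 316 ± 22.8 and LTBP4 down from 236 ± 44.9 to 67.4 ± 2.99.

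The YAP and TEAD targets had 5 risen and 4 fallen of 26. ANKRD1 rose from 498 ± 32.3 to 878 ± 61.3 (log2 fold change 0.82), while CTGF fell from 169 ± 18.8 to 68.1 ± 8.79 (log2 fold change -1.31), as did WWTR1 (TAZ) from 5161 ± 93.8 to 3127 ± 72.2 (log2 fold change -0.72). WNT and NOTCH genes had 7 risen and 8 fallen of 41. RNF43 and NKD2, feedback inhibitors of WNT, rose from 53.3 ± 13.7 to 149 ± 9.14 and from 293 ± 16.6 to 747 ± 74.1 (log2 fold change 1.35), and the receptor FZD5 from 1241 ± 58.8 to 2577 ± 123 (log2 fold change 1.05). The NOTCH ligands JAG1 and JAG2 fell from 1572 ± 70.4 to 905 ± 26.2 (log2 fold change -0.80) and from 3356 ± 186 to 2092 ± 104 (log2 fold change -0.68), and the WNT inhibitor DKK1 from 2984 ± 135 to 1583 ± 40.4 (log2 fold change -0.92). Guidance genes rose in 11 of 40 cases (27.5%) and fell in 6. UNC5B, a netrin receptor, had 52.3, 63.1 and 56.3 counts without dox and 478, 439.5 and 424 with it (2.96 ± 0.12), and its ligand NTN1 rose from 949 ± 38 to 1661 ± 38.3 (log2 fold change 0.81). Of 18 clock genes, 5 fell (27.8%) and 1 rose. RORA, an activator of BMAL1, fell from 169 ± 24.8 to 66 ± 6.70 (log2 fold change -1.36), CRY1 from 1335 ± 74.6 to 743 ± 82.5 (log2 fold change -0.85), and BHLHE41 rose from 179 ± 9.74 to 401 ± 10.3 (log2 fold change 1.16).

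Mucins and secreted epithelial proteins rose in 6 of 13 cases (46.2%) and fell in 1 (median 0.80). CEACAM1, an adhesion molecule, had 251, 229 and 197 counts without dox and 1246, 1263 and 1206 with it (2.46 ± 0.09). The mucins MUC1 and MUC16 rose from 1877 ± 79.4 to 3266 ± 40.8 (log2 fold change 0.80) and from 247 ± 59.7 to 622 ± 179 (log2 fold change 1.32), and the protease inhibitor SLPI from 69.6 ± 5.02 to 163 ± 15.4. WFDC2 fell from 118 ± 14 to 39.3 ± 2.30 (log2 fold change -1.59). The summed TPM of the epithelial markers was 9218 to 10310 in untreated and 7888 to 8907 in dox-treated libraries. Of 14 keratins, 4 rose and none fell. KRT4, a keratin of stratified epithelia, had 294, 328 and 326 and 1338, 1513 and 1316 (2.13 ± 0.08). The abundant simple-epithelial keratins KRT8, KRT18 and KRT19 had -0.42, -0.34 and -0.26.

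Cell junction genes were divided, with 9 of 38 risen (23.7%) and 6 fallen (15.8%). The risen included CLDN2, which passed the filter only through its dox-treated libraries. The tight junction genes CLDN1, CLDN3 and CLDN4 rose from 1824 ± 176 to 5336 ± 50.9 (log2 fold change 1.55), from 809.7 ± 79.1 to 1743 ± 161 (log2 fold change 1.11) and from 8126 ± 936 to 14447 ± 731 (log2 fold change 0.83). E-cadherin (CDH1) rose from 5967 ± 155 to 10825 ± 379 (log2 fold change 0.86), and the scaffolds TJP3 and CGN rose from 427 ± 10.8 to 1299.8 ± 85.1 (log2 fold change 1.61) and from 1485 ± 174 to 2937 ± 30.2 (log2 fold change 0.98). The desmosomal genes DSG2, DSC2 and PKP2 fell from 4247 ± 101 to 2315 ± 123 (log2 fold change -0.88), from 343 ± 26.2 to 124 ± 8.32 (log2 fold change -1.47) and from 6420.4 ± 247 to 3740.3 ± 151 (log2 fold change -0.78). CTNNB1 (beta-catenin), which binds cadherins, fell from 15134 ± 242 to 9561 ± 108 (log2 fold change -0.66), and CLDN7 from 5054 ± 310.2 to 2757 ± 205 (log2 fold change -0.87). The mesenchymal list of 14 had 2 risen and 2 fallen, and TAGLN rose from 123 ± 5.49 to 206 ± 38.8 while SNAI2 fell from 187 ± 20 to 108 ± 12.

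Matrix genes rose in 11 of 30 cases (36.7%) and fell in 4 (median 0.55). The risen again include MGP, which passed the filter only through its dox-treated libraries. COL1A1 had 399, 461 and 353 counts without dox and 1482, 1476 and 1483 with it (1.87 ± 0.09). COL6A1 rose from 2274 ± 121 to 5502 ± 385 (log2 fold change 1.27) and LAMB1 from 894 ± 24.3 to 1508 ± 9.09 (log2 fold change 0.75). SERPINH1, the chaperone of collagen, which is counted among the serpins, rose from 5933 ± 624 to 13321 ± 974 (log2 fold change 1.17). Among the 4 that fell, LAMA3 and LAMB3, chains of laminin-332, fell from 9682 ± 282 to 6326 ± 77.8 (log2 fold change -0.61) and from 14068 ± 709 to 8581 ± 405 (log2 fold change -0.71), and COL17A1, of hemidesmosomes, fell from 449 ± 19.7 to 242 ± 13.8 (log2 fold change -0.89). Integrins rose in 4 of 15 cases, and the 1 that fell was ITGA3, a laminin receptor, from 13668 ± 693 to 7321 ± 125 (log2 fold change -0.90). ITGAV and ITGB1 rose from 3579 ± 108 to 7143 ± 710.2 (log2 fold change 1.00) and from 36321 ± 533 to 55177 ± 1772 (log2 fold change 0.60).

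Secreted and cell-surface proteases and their inhibitors were among the most divided groups. Kallikreins, other serine proteases and their inhibitors fell in 8 of 26 cases (30.8%) and rose in 4 (median -0.43). The neighbouring kallikrein genes of chromosome 19 fell together, KLK6 from 10172 ± 810.3 to 3474 ± 253 (log2 fold change -1.55), KLK5 from 46 ± 19.3 to 6.27 ± 2.10 and KLK10 as given above. SERPINB5 (maspin) fell from 846 ± 64.3 to 207 ± 38.2 (log2 fold change -2.04) and TMPRSS4 from 1589 ± 51.1 to 740.0 ± 49.6 (log2 fold change -1.10), while TMPRSS2 rose from 36.7 ± 5.42 to 101 ± 16.1 (log2 fold change 1.45). Metalloproteases and their inhibitors rose in 7 of 25 cases and fell in 4. TIMP3, among the risen, had 2, 2 and 0 raw counts without dox and passed the filter only through its dox-treated libraries. MMP28 rose from 16.1 ± 3.69 to 234 ± 19.5 and ADAMTS15 from 207 ± 51.1 to 1815 ± 54.5 (log2 fold change 3.15). ADAM10, a main sheddase, rose from 6021 ± 27.9 to 10150.0 ± 110.2 (log2 fold change 0.75), and its relatives ADAM15 and ADAM19 fell from 3332 ± 360.1 to 1696 ± 158 (log2 fold change -0.97) and from 1806 ± 60.8 to 568 ± 49 (log2 fold change -1.67). The inhibitor TIMP2 rose from 12846 ± 947 to 21149.7 ± 1429 (log2 fold change 0.72).

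**Figure D5:**
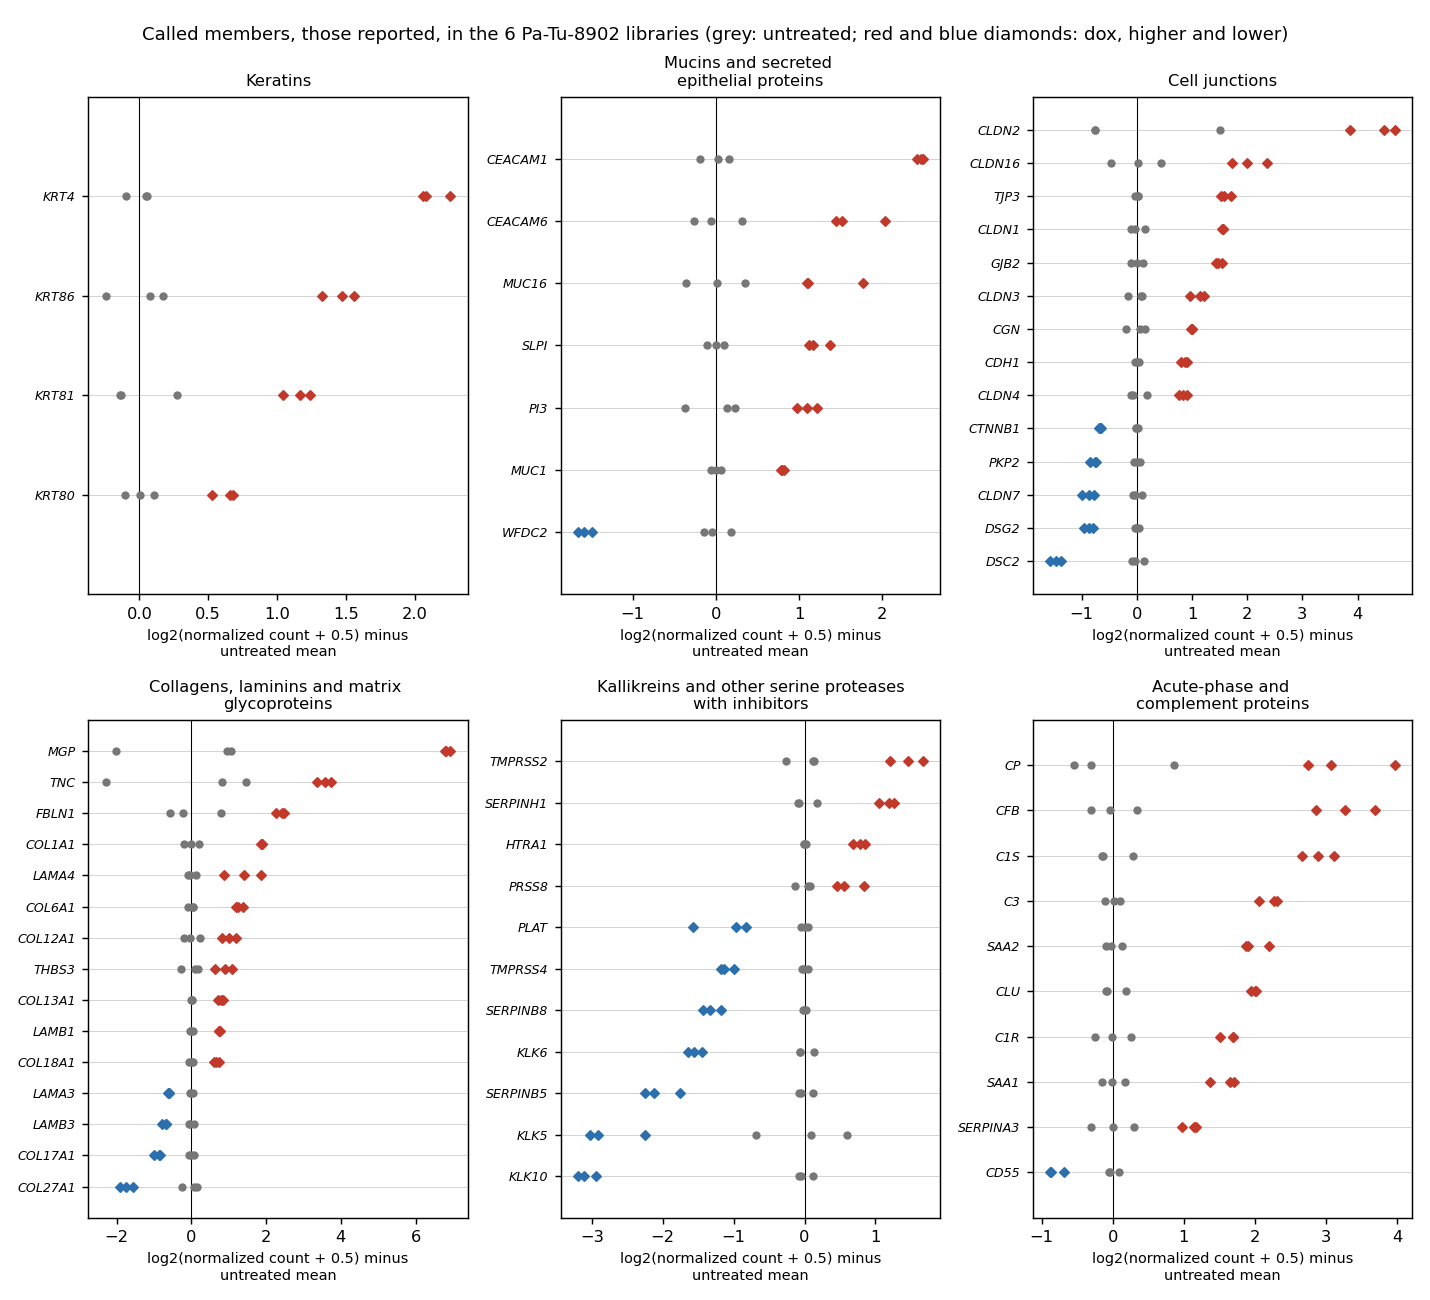
Each point is a library, placed by the log2 of its normalized count plus 0.5 minus the mean of the untreated libraries, for called members of 6 lists. Grey points are untreated, and red and blue diamonds are dox-treated libraries of genes called higher and lower, as for KRT4 (log2 fold change 2.13) and KLK10 (-3.08).

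A scan of gene families by the letters before the first digit of the symbol covered 180 families with at least 10 tested genes, in which the median share of called genes was 11.8%. The claudins had the highest share, with 5 risen and 2 fallen of 10. CLDN2, among the risen, had 0, 2 and 0 raw counts without dox and 19, 15 and 20 with it. It passed the filter only through the dox-treated libraries, and without it the claudins would have been too few for the scan. Calpains, calcium-activated proteases, and ADAM symbols came next, each with 2 risen and 4 fallen of 10. CAPN1 fell from 24197 ± 1943 to 13210.1 ± 1204 (log2 fold change -0.87) and CAPN5 rose from 210.2 ± 22.1 to 459 ± 2.79 (log2 fold change 1.13). Of 10 symbols beginning with CASP, 4 rose and 1 fell. Among the risen were the inflammatory caspases CASP1 and CASP4, with CASP4 from 985 ± 64.7 to 2159.6 ± 84.9 (log2 fold change 1.13). CASP1 held 4 raw counts over the 3 untreated libraries and 85 over the dox-treated ones, a ratio of 18.1 (95% exact interval 6.8 to 67.8). It passed the filter only through the dox-treated libraries.

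The clustered protocadherins PCDHB, neighbouring genes for neuronal adhesion proteins on chromosome 5, rose in 7 of 15 cases and fell in none. PCDHB2 rose from 537 ± 18.6 to 944 ± 25.7 (log2 fold change 0.81) and PCDHB8 from 107 ± 8.62 to 191 ± 18.3 (log2 fold change 0.83), and these genes resemble each other closely, so reads may be split among them. Of 11 SOX symbols 1 rose and 4 fell. SOX4 had 2335, 2368 and 2451 counts without dox and 4664, 5121 and 4926 with it (1.04 ± 0.05), and SOX9, a factor of pancreatic duct cells, fell from 3010.0 ± 60.3 to 1861 ± 163 (log2 fold change -0.69). Histone genes, cytochromes P450 and Krüppel-like factors lay outside the 10 families with the highest shares and were looked at after their values were seen. Among 32 histone symbols 10 rose and none fell. HIST1H2BK rose from 122 ± 11.5 to 443 ± 65.9 (log2 fold change 1.86) and HIST1H2AC from 84.9 ± 5.44 to 229 ± 5.28 (log2 fold change 1.43). These libraries select poly(A) RNA, and histone copies are near identical, so these values are uncertain. Of 20 CYP symbols 8 rose and none fell, and of 15 KLF symbols 2 rose and 4 fell, with KLF7 from 1162 ± 86 to 355 ± 2.46 (log2 fold change -1.71). Among the risen CYP symbols, CYP4F12 passed the filter only through its dox-treated libraries.

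Classes of RNA differed in the balance of the calls. Protein-coding genes rose in 10.1% and fell in 7.33% of 12560 cases. Long intergenic RNAs were balanced, at 42 risen (7.05%) and 49 fallen (8.22%) of 596. Antisense RNAs rose in 27 of 660 cases (4.09%) and fell in 45 (6.82%), against 9.22% and 7.12% of all tested genes. Processed pseudogenes rose in 1 of 266 cases (0.376%) and fell in 12 (4.51%). Processed pseudogenes thus had smaller shares than all genes in each direction. Antisense RNAs had a smaller share of rises, while their share of falls was near that of all genes. Among the fallen processed pseudogenes was NPM1P27, a copy of NPM1, which went from 401 ± 21.9 to 254 ± 10.1 (log2 fold change -0.66). Reads of a processed pseudogene and of its parent gene cannot be fully told apart.

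Some complexes held members that stood apart from most of their partners. PSMA1, a subunit of the 20S proteasome, had 4666, 4805 and 4995 counts without dox and 1909, 1826 and 1909 with it (-1.36 ± 0.05), while the median of the 36 proteasome genes was 0.00 and 1 other, PSMD12, fell from 5488 ± 137 to 3370.1 ± 141. MAD2L1, of the spindle checkpoint, had 3088, 2999 and 3194 and 1011, 1027 and 1040.0 (-1.59 ± 0.05), and NUF2, of the kinetochore, fell from 2989 ± 93.8 to 1351 ± 115 (log2 fold change -1.15), with NDC80, its partner, at 0.05. PRPF19, a splicing factor, fell from 10145 ± 1006 to 4696 ± 259 (log2 fold change -1.11) in a list of 63 spliceosome genes with a median of -0.14. Some other lists had few calls or calls in both directions. Plasma membrane amino acid transporters rose in 4 of 19 cases and fell in 3, S100 proteins and annexins rose in 3 of 22 and fell in 4, and iron and ferroptosis genes rose in 2 of 33 and fell in 1. Zinc transporters and metallothioneins rose in 2 of 22 cases, SLC30A1 from 1362 ± 3.22 to 2781 ± 42 and SLC39A7 from 5636 ± 95.7 to 8870.1 ± 303, and none fell. The purine and pyrimidine synthesis list, which also takes in the salvage gene UPP1, had 2 fallen of 35, TYMS and UPP1, and none risen. Integrins rose in 4 of 15 cases and fell in 1, and AP-1, EGR and MYC factors rose in 2 of 25 and fell in 4. The chromatin modifiers had 5 risen and 1 fallen of 59. The demethylase KDM5B rose from 267 ± 10.4 to 636 ± 34.3 (log2 fold change 1.25) and the DNA methyltransferase DNMT3A rose from 1351 ± 55.7 to 2306 ± 53 (log2 fold change 0.77).

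MIA PaCa-2, the other line of the series, served as a comparison for these changes. Libraries were taken for each line as labelled. Untreated MIA PaCa-2 libraries held 0.00 to 0.02 TPM of CDH1 and 0.08 to 0.17 TPM of EPCAM, against 60.0 to 70.2 and 543 to 553 TPM in untreated Pa-Tu-8902. The keratins KRT8, KRT18 and KRT19 were present in both lines, with KRT8 at 1382 to 1514 TPM in MIA PaCa-2 and 3609 to 4078 TPM in Pa-Tu-8902. The dox change differed between the lines for 1724 of 16544 genes (10.4%) by the interaction contrast at the same limits. Among the interferon-stimulated effectors 27 of 50 differed, all with the higher value in Pa-Tu-8902. In the separate comparison of MIA PaCa-2, 2 of 39 tested effectors rose and 9 fell. Of 11373 protein-coding genes tested in both lines, 496 rose and 831 fell in MIA PaCa-2. Ribosome biogenesis genes differed in 15 of 66 cases, all with the lower value in Pa-Tu-8902. The starvation and quiescence list differed in 14 cases with the higher and 4 with the lower value in Pa-Tu-8902. NF-kB genes differed in 10 of 27 cases with the lower value in Pa-Tu-8902 and in 1 with the higher. In S phase and proteasome genes the number that differed was 0.

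Of the genes called in Pa-Tu-8902, 585 were also called in MIA PaCa-2 in its own comparison, 196 higher and 299 lower in both, while 68 were higher in Pa-Tu-8902 and lower in MIA PaCa-2 and 22 the other way round. MAD2L1, PSMA1, NUF2 and DLD, picked after their values were seen, fell in both lines. Their log2 fold changes in MIA PaCa-2 were -1.67, -1.20, -1.04 and -1.12, and the differences from Pa-Tu-8902 did not pass the limits (for MAD2L1 0.08 ± 0.09, adjusted p = 0.579). UAP1 and ATP5MC2 changed in Pa-Tu-8902 and had -0.14 and 0.00 in MIA PaCa-2, differences of -1.20 ± 0.08 and 1.05 ± 0.12 that passed the limits.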

How the data were processed

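RNA-seq was performed by the authors on poly(A)-selected, strand-specific libraries read as pairs. Reads were trimmed with Trimmomatic 0.39 and aligned and counted with RSEM 1.3.1 and STAR 2.5.2a on hg38 with a GENCODE annotation, and the authors deposited expected counts and TPM for each gene and library, neither filtered nor pooled. Effective lengths in the deposited tables served an alternative. FPKM and isoform tables were not used here.

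Of the expected counts, 5.34% were not whole and were rounded. The 6 Pa-Tu-8902 libraries were normalized by TMM and fitted with edgeR 4.0.16 (glmQLFit, glmQLFTest) in R 4.3.3, for genes reaching 10 counts in 3 or more of them. A call needed both a fold of 1.5 or more and a p under 0.01 after Benjamini-Hochberg adjustment. SE was taken as the size of the log2 fold change over the root of F. The normalized count is the count divided by the relative effective library size. The interaction contrast used all 12 libraries. The fit was tested on simulated data. The 15 second copies of genes shared by X and Y stayed among the tested genes. Gene positions are from GENCODE release 44.

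The 61 gene lists were written from general knowledge, and the members, lists and the rule for named genes were chosen with earlier results of these data known. They were described by counts and medians, with no set test. Named are GOT1, the 10 largest called rises and falls where groups were separate and the mean normalized count reached 100, up to 2 genes per direction with the smallest p in each list and in the 10 families with the highest called share, and others taken from the lists after their values were seen. Some genes that the rule would name are not reported here. The alternatives used DESeq2 1.42.0 or only its size factors, other filters and limits, glmTreat, effective lengths, a replicate block, all 12 libraries in 1 fit and each library left out.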

Additional observations from a re-analysis of the deposited data

Results flagged for a closer look

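The dox change differed between the lines for 1724 genes by the interaction contrast. Of the 201 genes that the rule names, 104 differed, against 10.4% of all 16544 genes tested for a difference. The rule picks genes by their change in Pa-Tu-8902, so a larger share among them was built in. The 10 below were called in opposite directions in the separate comparisons of the lines, and each difference is the log2 fold change in Pa-Tu-8902 minus that in MIA PaCa-2, with its SE.

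Lower in Pa-Tu-8902 and higher in MIA PaCa-2 were ADAM19, a metalloprotease (-2.94 ± 0.18), the neuropilin NRP2 (-2.85 ± 0.29), the receptor kinase AXL (-2.46 ± 0.10), the transcription factor SNAI2 (-1.82 ± 0.24) and the deacetylase HDAC9 (-1.37 ± 0.10). Higher in Pa-Tu-8902 and lower in MIA PaCa-2 were the clock factor BHLHE41 (2.29 ± 0.18), IRF2BPL (2.13 ± 0.10), the semaphorin SEMA6B (2.00 ± 0.13), the secreted protease HTRA1 (1.94 ± 0.10) and the guidance gene NTN1 (1.61 ± 0.12). AXL went from 4820.0 ± 255 to 2005 ± 158 in Pa-Tu-8902 and had a log2 fold change of 1.20 in MIA PaCa-2. No group held more than 3 libraries, so single libraries were not tested as outliers.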

How the results depend on the processing

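The direction of GOT1 was the same under every alternative run. The counts of called genes depended on the fold limit. Genes higher and lower with dox numbered 1379 and 1064, became 692 and 419 with a fold of 2, 2838 and 2854 with no fold limit, and 627 and 433 when glmTreat tested for a change above 1.5-fold. Of the 201 named genes, 198 were called, and 94 with a fold of 2. Gene families called at 2 or more times the share of all genes numbered 25, with 54 when no filter on counts was used, 3 with no fold limit and 16 without the first dox-treated library. When libraries were dropped singly, the ranges were 1185 to 1355 higher, 929 to 984 lower, -4.72 to -4.54 for GOT1, 28 to 32 lists (31 of 61 with all libraries) holding more risen than fallen members, 16 to 24 families, 190 to 197 named genes and 1549 to 1726 genes that differed between the lines. With a replicate block, 1342 genes were higher, 1038 were lower, GOT1 was at -4.63 and 1611 genes differed between the lines, and all 198 named genes stayed called. Same-numbered libraries did not deviate together in every pair (correlations 0.384, -0.302 and 0.257), so the numbers were not used as pairs. DESeq2 gave 1362 and 1028, effective lengths 1160 and 942. Of the list medians, 9 changed sign in at least 1 alternative, of which integrins moved most (-0.18, and 0.28 with all 12 libraries and 0.32 with no filter, where more members were tested). Depth limits genes under about 10 counts, for which folds rest on few reads.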

Other observations

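Large falls of about the same size in both lines were more numerous than such rises. By a rule chosen after the values were seen (a mean of at least 1000 normalized counts, a change of at least 2-fold in each line and a difference between the lines under 0.3 on the log2 scale), 20 genes were lower and 2 were higher, among the latter MICB, a stress ligand of natural killer cells. Falls were also more frequent than rises among all genes at that level in Pa-Tu-8902 (6.07% against 5.26%). The same held for genes called in the same direction in both lines (299 against 196). Beside GOT1 the lower genes included KLHL5, an adaptor of cullin ligases (-1.90, with -2.08 in MIA PaCa-2), GNPDA1, a glucosamine-6-phosphate deaminase (-1.86 and -1.81), LPGAT1, a lysophospholipid acyltransferase (-1.53 and -1.54), and RAB21, an endosomal GTPase (-1.48 and -1.40). The adenosine receptor ADORA2B had -1.52 and -1.67, and FAM32A -1.46 and -1.44. XPOT, the exporter of tRNA, had -1.13 and -1.01. These are listed as values only. Cells of both lines carried a hairpin against GOT1, and whether these changes follow the hairpin, GOT1 loss or dox cannot be told apart here.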
